A study of Homo sapiens with 4 samples.

Results

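The genes described here are 10 regulators and markers of the mesenchymal state of glioblastoma (GBM), chosen by name: the transcription factors CEBPB, STAT3, RUNX1, SNAI2, TWIST1, TWIST2, ZEB1 and ZEB2, the intermediate filament protein VIM and the surface receptor CD44. Of the 10, 9 are among the 15575 genes of the U251 count table and all 9 passed the filter on low counts, which left 13172 genes. TWIST2 has no entry there, so its expression was not analysed here. U251 is an established human GBM cell line. RNA-seq was performed on 2 Ctrl libraries (labelled pGreen_Ctrl, cells given a control shRNA lentivirus) and 2 PRMT3-KD libraries (cells given a lentivirus with shRNA against the arginine methyltransferase PRMT3), in both groups for 72 h. All 4 libraries thus come from 1 cell line that carries a lentivirus, and the shRNA used for the PRMT3-KD libraries and any separate cultures behind the replicates are not given in the sources used here.

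GBM cells move between a proneural state, with features of neural progenitors, and a mesenchymal state, with features of migrating connective tissue cells and activated astrocytes. CEBPB and STAT3 are known as master regulators of the mesenchymal program, and RUNX1 as a further factor that binds its genes. SNAI2, TWIST1, TWIST2, ZEB1 and ZEB2 are the factors that in carcinomas drive the epithelial-mesenchymal transition (EMT), mainly by repressing epithelial genes through E-box sequences, and in glioma they have been linked to invasion. VIM and CD44 are the markers by which mesenchymal cells are usually recognised.

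Total counts per library lay between 24804250 and 29756313, and levels are given as CPM, counts scaled to a common library size after TMM (edgeR's correction for library composition). PRMT3, the targeted gene, had 535 counts in each Ctrl library and 77 and 45 counts in PRMT3-KD libraries 1 and 2. The Ctrl libraries differed by little more than counting error: their chi-square divided by its degrees of freedom was 1.41 (13004 genes), whereas the PRMT3-KD pair gave 66.7 (12997 genes). The test therefore rests mostly on the spread between the PRMT3-KD libraries. Whether these are separate cultures is not known, so the spread, and the p-values with it, may be technical. Of the markers of other cell types, AIF1 and CD3E (immune) and PECAM1, CLDN5 and TEK (endothelial) have no entry in the table, and PTPRC had 2 to 7 counts in a library. The immune list summed to 25.04 and 26.3 CPM in Ctrl against 30.7 and 30.3 CPM with PRMT3-KD, nearly all of it CD68. Of its 3 tested genes 0 was called (edgeR, with 1 at an unadjusted p under 0.05 and 0 called by DESeq2), beside 10.9% (edgeR) and 14.6% (DESeq2) over all tested genes. The glial markers GFAP, NES and SOX2 were present, while AQP4 had 1 count in all.

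In the PRMT3-KD cells 3 of the 9 tested genes changed past the threshold used here, an adjusted p under 0.05 and over 1.5-fold. STAT3 rose, and the EMT factors SNAI2 and ZEB2 fell. CEBPB, RUNX1, TWIST1, ZEB1, VIM and CD44 did not pass. The median log2 fold change of the 9 genes was -0.20, against 0.0055 over all tested genes. Among all genes in the test, 10.9% were called, 4.97% as higher and 5.97% as lower, so that 1 of 9 stands beside 4.97% and 2 of 9 beside 5.97%. DESeq2, which called the same 3 of the 9, called 14.6% of the 12555 genes for which it gave an adjusted p. The libraries were made to ask by which genes PRMT3 acts on GBM growth, and the study also assayed migration.

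**Figure D1:**
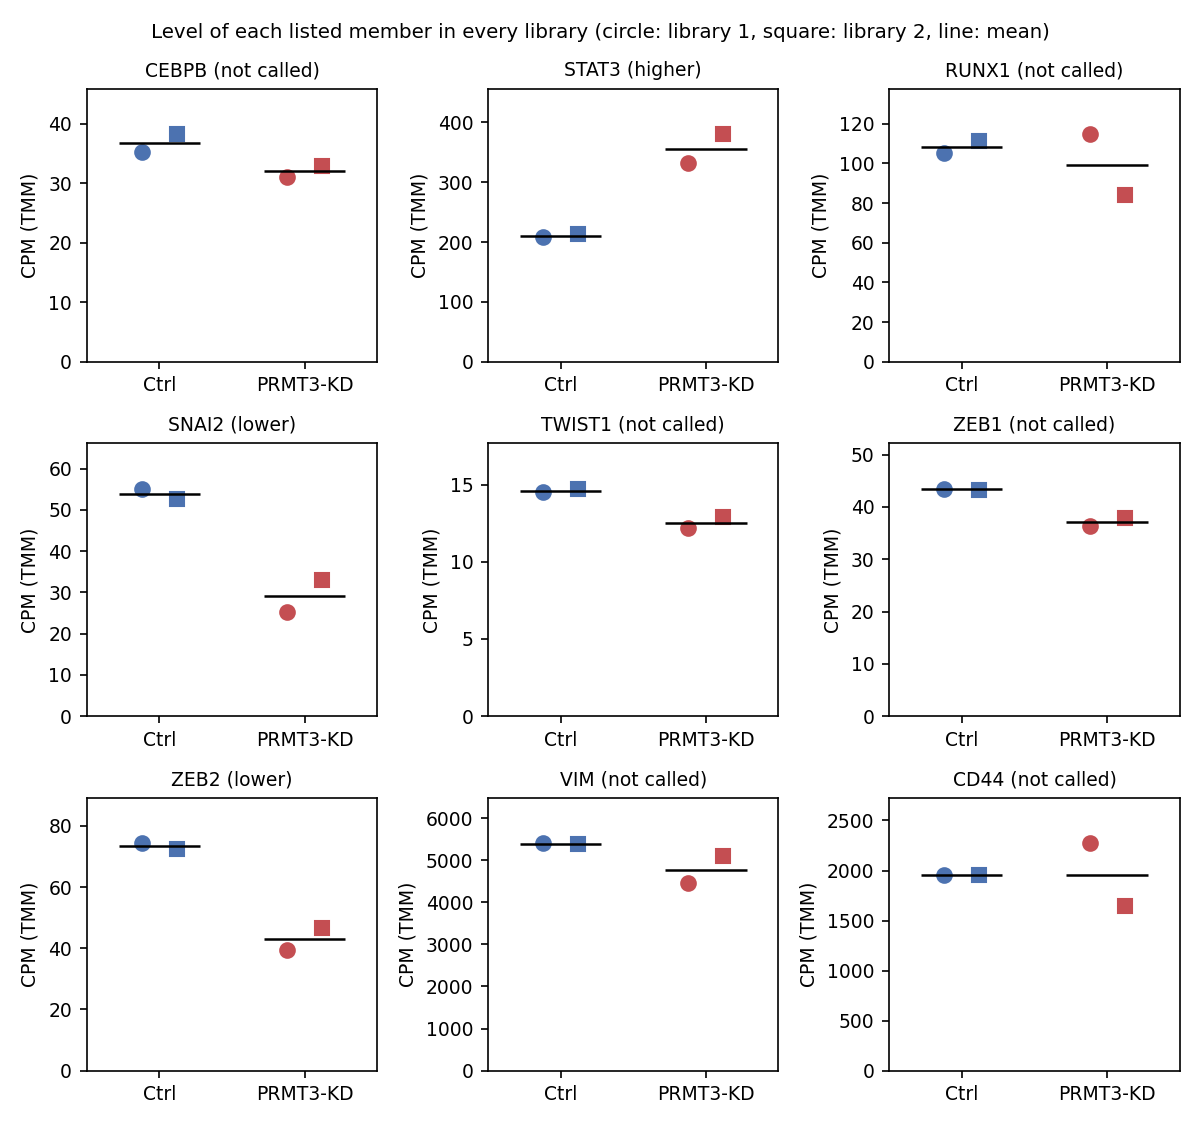
Level of the 9 listed genes in CPM (y axis, from 0) in the Ctrl (blue) and PRMT3-KD (red) libraries, with circles for library 1, squares for library 2 and lines for the group means (n = 2). The STAT3 points lie between 333 and 380.0 CPM in PRMT3-KD against 208 and 213 CPM in Ctrl, those of SNAI2 and ZEB2 lie lower in PRMT3-KD, and the RUNX1 and CD44 points of PRMT3-KD lie on either side of Ctrl.

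VIM and CD44 had by far the highest levels of the 9 genes. Per kilobase of annotated exon, VIM stood at 1042 ± 1.37 CPM and CD44 at 195.8 ± 0.186 CPM in Ctrl (SD, n = 2 each), above 99.9% and 99.1% of tested genes. VIM alone took 0.546% and 0.545% of the counts of the Ctrl libraries. The regulators lay much lower, from CEBPB at 20.01 ± 1.11, STAT3 at 18.8 ± 0.305 and SNAI2 at 16.4 ± 0.548 CPM per kilobase, through TWIST1 at 7.32 ± 0.0762 and RUNX1 at 6.95 ± 0.259, to ZEB1 at 5.01 ± 0.0156 and ZEB2 at 2.81 ± 0.0482. In this order CEBPB and STAT3 differ by about the spread between the Ctrl libraries, as do TWIST1 and RUNX1. The order among the regulators depends on which isoforms are taken as the length. With the canonical transcript alone, a choice made after the data were seen, STAT3 led the regulators at 42.8 CPM per kilobase and ZEB2 (7.92) stood just above ZEB1 (7.30), while VIM and CD44 remained the highest.

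Most other mesenchymal GBM markers were present in the Ctrl cells. Of 40 such genes, 39 have an entry, and 36 of these had a mean of at least 1 CPM in Ctrl. Among them, THBS1, ANXA2 and TGFBI were at 5462, 3102 and 1925 CPM in Ctrl, of which ANXA2 was chosen after its values were seen. Of the 15 proneural markers, 9 have an entry, and 8 of these also had a mean of at least 1 CPM in Ctrl. Among them were TUBB3 and SOX2 at 323 and 171 CPM in Ctrl, while OLIG1, OLIG2, SOX10, NKX2-2, DCX and BCAN have no entry. Presence is common among all genes listed: the filter on low counts, a different cut, kept 13172 of 15575. The share of all genes with at least 1 CPM was not counted, so these marker counts are a description only. The 3 mesenchymal markers under 1 CPM in Ctrl were CHI3L1, C1S and C1R. CHI3L1, a secreted glycoprotein that is among the best known markers of mesenchymal GBM, had 0 and 2 counts in Ctrl and 0 in both PRMT3-KD libraries, and C1S and C1R were at 0.453 and 0.597 CPM in Ctrl. These 3 genes were chosen after their values were seen.

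Among the master regulators, STAT3 was the gene that rose. STAT3 (ENSG00000168610, chromosome 17 of GRCh37 from 40465342 to 40540558, minus strand) is the transcription factor that carries cytokine signals of the IL6 family to the nucleus. It had 5768 and 5859 counts in Ctrl, against 8458 and 10798 with PRMT3-KD (libraries 1 and 2), that is 208, 213, 333 and 380.0 CPM. Both PRMT3-KD libraries were well above both Ctrl libraries, with the higher value in library 2. From 211 ± 3.42 to 356 ± 33.4 CPM (SD, n = 2 each), the change was 1.69-fold, a log2 fold change of 0.76 (standard error 0.0927, 95% interval 0.51 to 1.01, adjusted p = 0.0201 by edgeR, Benjamini-Hochberg over all tested genes). Of all tested genes, 6.42% had a higher log2 fold change.

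CEBPB (ENSG00000172216, chromosome 20 from 48807367 to 48809205, plus strand, a single-exon gene) encodes the bZIP factor that acts with STAT3 on the mesenchymal program. Its level was 35.4 and 38.2 CPM in Ctrl, against 31.1 and 32.9 CPM with PRMT3-KD. The PRMT3-KD values were lower without overlap, but the gap between the nearest values was about as wide as the difference between the Ctrl libraries. The log2 fold change was -0.20 (standard error 0.0928, 95% interval -0.45 to 0.047, adjusted p = 0.196, edgeR), so that a fall to the threshold of 1.5-fold lies outside the interval. The exons of CEBPB-AS1, on the other strand, cover 12.6% of its exon length, and whether the counting used strand is not given in the sources used here.

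RUNX1 (ENSG00000159216, chromosome 21 from 36160098 to 37376965, minus strand) encodes the DNA-binding subunit of the core binding factor. It moved in opposite directions in the PRMT3-KD libraries, with 105 and 111 CPM in Ctrl but 115 CPM in PRMT3-KD library 1 and 83.9 CPM in library 2. The groups overlap, and the log2 fold change of -0.13 had a 95% interval from -0.57 to 0.32 (adjusted p = 0.623, edgeR). The log2 difference between PRMT3-KD libraries 2 and 1 was -0.45, with a counting error of 0.0399, and 21.6% of tested genes differed more between these libraries.

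SNAI2 and ZEB2 were the EMT factors among the 9 genes that fell. SNAI2 (ENSG00000019549, chromosome 8 from 49830157 to 49834299, minus strand), also called Slug, is the zinc finger repressor of the Snail family that is typical of neural crest and mesenchymal cells. The counts were 1527 and 1446 in Ctrl, against 644 and 940 with PRMT3-KD (libraries 1 and 2), or 55.1, 52.6, 25.3 and 33.1 CPM. Both PRMT3-KD libraries were far below Ctrl, library 1 more so. The level went from 53.8 ± 1.80 to 29.2 ± 5.47 CPM (SD, n = 2 each), 1.84-fold lower, with a log2 fold change of -0.88 (standard error 0.151, 95% interval -1.28 to -0.48, adjusted p = 0.0317, edgeR). Of all tested genes, 4.82% had a lower log2 fold change. In these bulk libraries, fewer cells with the transcript and less of it per cell cannot be told apart.

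The fall of ZEB2 was of similar size, with an interval that overlaps that of SNAI2. ZEB2 (ENSG00000169554, chromosome 2 from 145121931 to 145278624, minus strand) and ZEB1 (ENSG00000148516, chromosome 10 from 31607424 to 31818742, plus strand) are paralogous repressors that bind E-boxes through clusters of zinc fingers. ZEB2 had 2059 and 1995 counts in Ctrl, against 1005 and 1329 with PRMT3-KD, or 74.3, 72.5, 39.5 and 46.8 CPM. The groups lie far apart, and again library 1 was the lower of the PRMT3-KD libraries. The change from 73.4 ± 1.26 to 43.2 ± 5.11 CPM (SD, n = 2 each) was 1.70-fold, a log2 fold change of -0.77 (standard error 0.108, 95% interval -1.06 to -0.48, adjusted p = 0.0232, edgeR), and 6.83% of tested genes had a lower one. ZEB2-AS1 on the other strand covers 5.0% of its exon length, AC009951.1 overlaps it on the same strand, and it has an annotated pseudogene, ZEB2P1, so its counts could include or lose shared reads.

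ZEB1 moved less than its paralog. Its counts of 1204, 1190, 923 and 1075 correspond to 43.4 and 43.3 CPM in Ctrl, against 36.3 and 37.8 CPM with PRMT3-KD. All PRMT3-KD values were below Ctrl by a small margin. The log2 fold change was -0.23 (standard error 0.0796, 95% interval -0.44 to -0.013), which gave an unadjusted p of 0.0417 and an adjusted p of 0.118 (edgeR). TWIST1 (ENSG00000122691, chromosome 7 from 19060614 to 19157259, minus strand), a basic helix-loop-helix factor of mesoderm and neural crest, showed a like picture at a lower level, with 14.5 and 14.7 CPM in Ctrl, against 12.2 and 12.9 CPM with PRMT3-KD. Its log2 fold change was -0.22 (standard error 0.107, 95% interval -0.51 to 0.064, adjusted p = 0.212, edgeR). Genes on the other strand cover 7.1% of the exon length of TWIST1, 4.6% of that of ZEB1, 3.7% for SNAI2 and 1.5% for CD44.

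The markers VIM and CD44 did not pass the test. VIM (ENSG00000026025, chromosome 10 from 17270240 to 17279592, plus strand) encodes vimentin, the type III intermediate filament of mesenchymal cells and immature glia. It stood at 5398 and 5388 CPM in Ctrl, against 4451 and 5091 CPM with PRMT3-KD. The PRMT3-KD values were lower, but they differed from each other by about as much as the group means did, and the log2 fold change was -0.18 (standard error 0.0947, 95% interval -0.43 to 0.076, adjusted p = 0.248, edgeR). Without PRMT3-KD library 1 it was -0.081, and without library 2 it was -0.28. VIM-AS1 and another gene on the other strand cover 24.6% of its exon length.

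CD44 (ENSG00000026508, chromosome 11 from 35160429 to 35253949, plus strand) encodes the receptor for hyaluronan and osteopontin. Its level was 1955 and 1958 CPM in Ctrl, 2271 CPM in PRMT3-KD library 1 and 1645 CPM in library 2. The PRMT3-KD libraries thus lay on either side of Ctrl, and the group means of 1956 ± 1.86 and 1958 ± 443 CPM (SD, n = 2 each) hide this. The log2 fold change was 0.0011 with a 95% interval from -0.45 to 0.45 (adjusted p = 0.997, edgeR), an interval that leaves room for changes under 1.5-fold in either direction. All CD44 isoforms are counted together in this table. Between the PRMT3-KD libraries CD44 and RUNX1 were higher in library 1, and STAT3, SNAI2, ZEB2 and VIM were higher in library 2, where SNAI2, ZEB2 and VIM were nearer to Ctrl and STAT3 was farther from it. For CEBPB, TWIST1 and ZEB1 the log2 difference between these libraries (0.082, 0.084 and 0.058) was about as large as its counting error or smaller (0.0697, 0.111 and 0.0647).

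**Figure D2:**
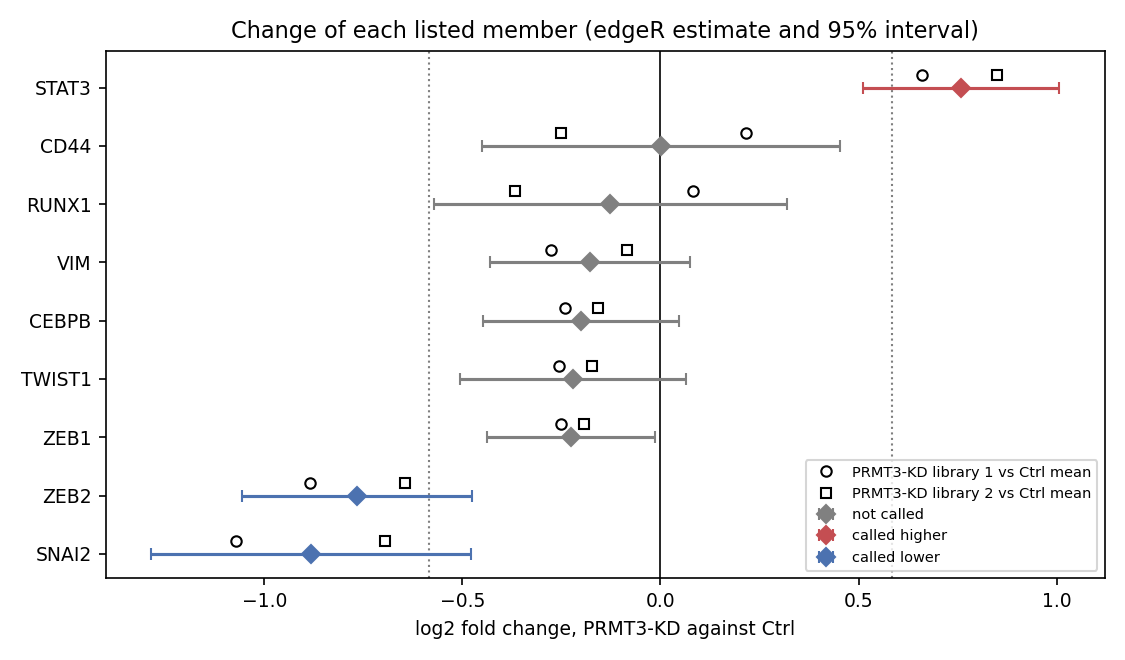
Log2 fold change of PRMT3-KD against Ctrl (x axis) for the 9 listed genes (y axis), with diamonds for the edgeR estimate, bars for its 95% interval, open symbols for each PRMT3-KD library against the Ctrl mean (0.5 CPM added to each value), and dotted lines at 1.5-fold. STAT3 lies at 0.76, ZEB2 at -0.77 and SNAI2 at -0.88, and the intervals of all other genes but ZEB1 (-0.44 to -0.013) include 0.

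Of the 9 genes, 6 had both PRMT3-KD values under the Ctrl values, STAT3 had both above them, and 2 (RUNX1 and CD44) overlapped. Such separation is common here: 67.1% of all tested genes did not overlap, 33.8% lower and 33.3% higher. An adjusted p under 0.05 without the fold threshold was reached by the same 3 genes and by 17.3% of all tested genes. With either PRMT3-KD library left out, the spread comes from the Ctrl pair alone, edgeR calls 3066 and 2989 genes and 8 of the 9 genes have an unadjusted p under 0.05, so that the calls of STAT3, SNAI2 and ZEB2 there are no check of their stability. With a Ctrl library left out, edgeR called 0 of the 13402 or 13420 genes tested (1842 and 1868 at an unadjusted p under 0.05) and DESeq2 called 263 and 250, with none of the 9 among them. The adjusted p of STAT3, SNAI2 and ZEB2 then lay between 0.196 and 0.239 (edgeR).

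Ratios between paralogs need no scaling between libraries, and are given with 0.5 added to each count. ZEB1 and ZEB2 shifted against each other, with a count ratio of ZEB1 to ZEB2 of 0.585 and 0.597 in Ctrl and 0.918 and 0.809 in PRMT3-KD libraries 1 and 2. The difference in the mean log2 ratio was 0.55, larger than the SD of 0.0203 in Ctrl and 0.13 in PRMT3-KD (n = 2 each). The two-sided exact permutation p was 0.33, the smallest that this test can give with 2 libraries in each group.

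SNAI2 was the dominant Snail factor in all libraries. SNAI1, its paralog, had 35 and 36 counts in Ctrl, against 3 and 19 with PRMT3-KD. The ratio of SNAI2 to SNAI1, here of the plain counts with nothing added, was 43.6 and 40.2 in Ctrl (exact Clopper-Pearson 95% intervals 31.2 to 62.9 and 28.9 to 57.6). It was 49.5 (31.5 to 82.6) in PRMT3-KD library 2, while the 3 counts in library 1 give 214.7 with an interval from 73.1 to 1044. With 0.5 added to each count again, the ratio of CEBPB to CEBPD was 7.40 and 6.73 in Ctrl, against 6.40 and 2.82 with PRMT3-KD. CEBPD had 132 and 156 counts in Ctrl, against 123 and 332 with PRMT3-KD. With 0.5 added for SNAI2 to SNAI1 as well, the exact permutation p was 0.33 for that pair and for CEBPB to CEBPD (n = 2 each). The ratio of RUNX1 to RUNX2 was 1.10 and 1.14 in Ctrl, 2.35 in PRMT3-KD library 1 and 0.996 in library 2 (exact p = 1), so the PRMT3-KD libraries lie on opposite sides of Ctrl.

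**Figure D3:**
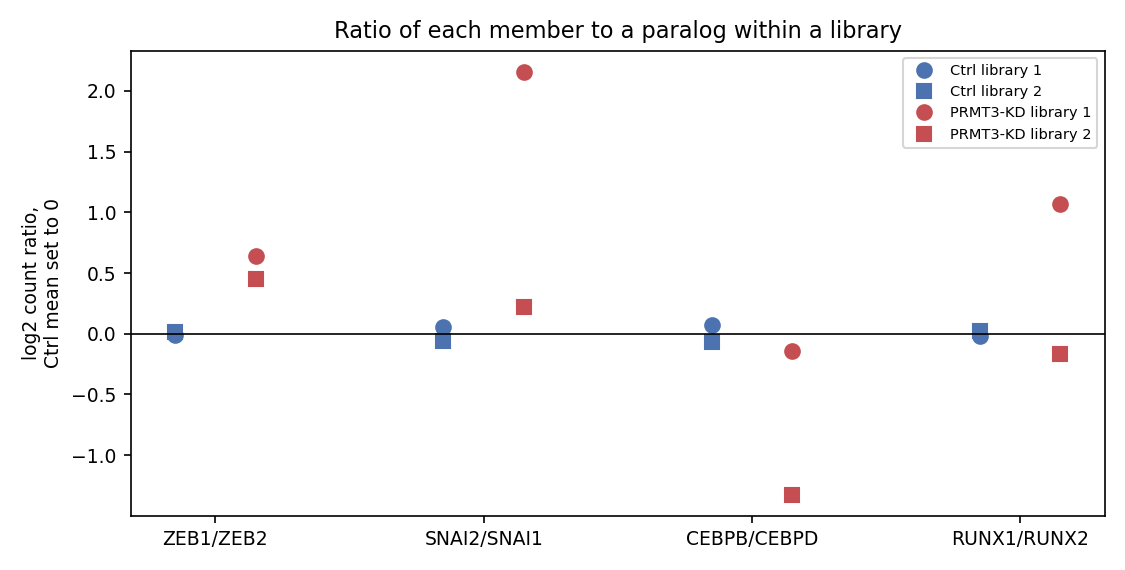
Log2 count ratio of a gene to its paralog within a library (y axis, 0.5 added to each count, Ctrl mean set to 0) for 4 pairs (x axis), with blue for Ctrl, red for PRMT3-KD, circles for library 1 and squares for library 2. Both PRMT3-KD points of ZEB1/ZEB2 lie above Ctrl with a mean shift of 0.55, while those of RUNX1/RUNX2 lie on opposite sides.

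The 3′ UTRs of ZEB1 and ZEB2 hold many matches to the seeds of the miR-200 family, microRNAs of epithelial cells that are known to repress both genes and that are themselves repressed by ZEB proteins. The microRNAs were not measured here. Their sequences and the sites are shown because the paralogs share them. Any part of these microRNAs in the values of ZEB1 and ZEB2 was not tested. The mature sequences from RefSeq (GRCh38.p14, all plus strand) of 4 members fall into groups by seed (bases 2 to 8, in capitals). They lie at chr1:1167160-1167181 (miR-200b), chr12:6963742-6963764 (miR-200c), chr12:6964155-6964176 (miR-141) and chr1:1167916-1167937 (miR-200a).
hsa-miR-200b-3p: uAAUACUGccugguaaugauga
hsa-miR-200c-3p: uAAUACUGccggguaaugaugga
hsa-miR-141-3p: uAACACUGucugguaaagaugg
hsa-miR-200a-3p: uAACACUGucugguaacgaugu

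The first group of seeds pairs with CAGTATT and the second with CAGTGTT on the transcript strand. In the canonical transcripts of GENCODE 44 on GRCh37, the 3′ UTR of ZEB1 (2540 bases) has 6 copies of CAGTATT and 3 of CAGTGTT, and that of ZEB2 (5370 bases) has 5 and 4. Among 12617 tested genes with a 3′ UTR of at least 50 bases, 20.3% have CAGTATT and 22.3% have CAGTGTT, and 8 genes have 5 or more copies of CAGTATT. These shares are not matched for length: the median 3′ UTR has 1402 bases, fewer than those of ZEB1, ZEB2 and RUNX1 (4334 bases). The first CAGTATT sites of each gene are shown with the seed match in capitals, at chr10:31816553-31816575 and chr10:31816647-31816669 (plus strand) for ZEB1 and at chr2:145146612-145146634 and chr2:145146549-145146571 (minus strand) for ZEB2.
ZEB1, base 369 of the 3′ UTR: tatcttatCAGTATTatcactct
ZEB1, base 463 of the 3′ UTR: atccgcttCAGTATTttattatg
ZEB2, base 392 of the 3′ UTR: ccatacatCAGTATTtttattat
ZEB2, base 455 of the 3′ UTR: caatgcatCAGTATTatgattcc

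The 3′ UTR of SNAI2 has 1 copy of CAGTATT and that of RUNX1 has 1 copy of CAGTATT and 2 of CAGTGTT, while those of STAT3, CEBPB, TWIST1, VIM and CD44 have neither. A match is a description of the sequence and not a measured site.

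The promoters of the genes with an entry in the RefSeq promoter table were searched for the motifs of the listed factors, in the 250 bases before each start (GRCh38.p14, both strands). SNAI2 and TWIST1 were not searched. The letters searched were TTCNNNGAA (STAT), CAGGTG and CATNTG (E-boxes of ZEB and SNAI and of TWIST factors), TTGCNNAA (CEBP), TGTGGT (RUNX) and TGANTCA (AP-1). Of 35116 promoter windows, 6.57%, 17.5%, 29.7%, 9.05%, 11% and 6.57% hold them, in this order. The window of STAT3 (chr17:42388443-42388692, minus strand) has none of these letters, and that of ZEB2 (chr2:144520120-144520369, minus strand) has 1 CATNTG, read on the other strand and set in capitals below. ZEB1 has 7 windows in the table, of which 2 hold CAGGTG, 2 hold CATNTG and 2 hold TGTGGT, and in 1 window a TGTGGT match overlaps a CAGGTG match. TWIST2 has 1 TTGCNNAA, VIM 1 TGTGGT, and the windows of CEBPB, RUNX1 and CD44 have no match. The promoters of STAT3 and ZEB2 are printed since these are called genes with opposite changes.
STAT3: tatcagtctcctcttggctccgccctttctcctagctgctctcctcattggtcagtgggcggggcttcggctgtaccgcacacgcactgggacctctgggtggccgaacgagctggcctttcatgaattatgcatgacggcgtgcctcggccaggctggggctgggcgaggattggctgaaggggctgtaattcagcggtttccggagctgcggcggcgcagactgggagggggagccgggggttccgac
ZEB2: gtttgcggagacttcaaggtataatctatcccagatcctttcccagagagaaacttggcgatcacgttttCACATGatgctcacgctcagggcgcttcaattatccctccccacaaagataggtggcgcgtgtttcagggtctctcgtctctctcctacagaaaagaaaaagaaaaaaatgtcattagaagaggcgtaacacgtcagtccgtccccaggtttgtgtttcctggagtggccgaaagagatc

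Of the 15 genes of IL6 family signalling to STAT3, edgeR called 1 and DESeq2 2, beside 10.9% and 14.6% over all tested genes. The gene called by edgeR was IL6R, the ligand-binding receptor subunit, with 110 and 112 counts in Ctrl, against 187 and 182 with PRMT3-KD. Its log2 fold change was 0.77 (adjusted p = 0.0462, edgeR). MCL1, an anti-apoptotic STAT3 target with the highest CPM of the list, was at 273 CPM in Ctrl, against 315 CPM with PRMT3-KD (log2 fold change 0.21, adjusted p = 0.116, edgeR). SOCS3, the feedback inhibitor that STAT3 induces, had a log2 fold change of -0.12 (adjusted p = 0.501, edgeR), and the median of the list was -0.18. LIFR (-0.43, adjusted p = 0.0396) and TYK2 (-0.48, adjusted p = 0.0410, both edgeR) were lower by less than 1.5-fold. SOCS3, LIFR and TYK2 were chosen after their values were seen.

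In these small families the counts of calls stand beside 10.9% (edgeR) and 14.6% (DESeq2) over all tested genes. Among the 4 tested STAT paralogs none was called (edgeR, with 0 at an unadjusted p under 0.05, and 0 by DESeq2), and both tools called 1 of the 5 tested genes of the CEBP list and 1 of the 4 of the RUNX list. CEBPG of the CEBP list fell from 72.4 ± 0.959 to 32.6 ± 9.72 CPM (SD, n = 2 each), with a log2 fold change of -1.15 (adjusted p = 0.0374, edgeR). CEBPG is a short family member that pairs with other bZIP factors, among them ATF4. CEBPZ, the highest in CPM of this list, shares the name but is not a bZIP factor, and was at -0.42 (adjusted p = 0.0715, edgeR). In the RUNX family the called gene was CBFB, the subunit that stabilises RUNX proteins on DNA, which fell from 3122 and 3143 counts to 1667 and 1536 (log2 fold change -0.92, adjusted p = 0.0203, edgeR). CBFB was lower in both PRMT3-KD libraries, while RUNX1 itself lay on either side of Ctrl.

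Of the 11 other mesenchymal GBM regulators, which include FOSL1, FOSL2, BHLHE40, RELA and WWTR1, none was called by edgeR (1 at an unadjusted p under 0.05: RELA, with a log2 fold change of -0.50 and an adjusted p of 0.0321, lower by less than 1.5-fold), and DESeq2 called 1 (10.9% and 14.6% over all tested genes). FOSL1 had the largest estimate of this list, with 5249 and 5238 counts in Ctrl, against 3545 and 1706 with PRMT3-KD (libraries 1 and 2). Its log2 fold change was -0.93 (adjusted p = 0.179, edgeR). Which of these genes DESeq2 called is not given here. RELA and the values of FOSL1 were chosen after they were seen. FOSL2, the highest in CPM, had a log2 fold change of -0.069 (adjusted p = 0.861, edgeR). Of the 10 tested of the other EMT factors, edgeR and DESeq2 each called 2, beside the same shares. FOXM1 and SOX9 fell by 1.54 and 0.65 on the log2 scale (edgeR, adjusted p = 0.0160 and 0.0215). FOXM1 is foremost a driver of mitotic genes and SOX9 a glial progenitor factor. ETS1, the highest in CPM, was at 0.34 (adjusted p = 0.107, edgeR), and the median of this list was -0.40.

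Of the 13 tested genes for proteins that act with CD44, edgeR called 2 as higher and 2 as lower, and 9 were not called. DESeq2 called 4, and over all tested genes edgeR called 10.9% and DESeq2 14.6%. HAS3, a hyaluronan synthase, rose from 10.2 ± 0.36 to 33.1 ± 14.1 CPM (SD, n = 2 each; log2 fold change 1.69, adjusted p = 0.0386, edgeR). MMP14, the membrane protease that sheds CD44, rose from 8850 and 9096 counts to 17516 and 15844 (log2 fold change 0.94, adjusted p = 0.0212, edgeR). In contrast, HMMR, a hyaluronan-binding protein of the mitotic spindle, and NF2, the merlin protein that binds the CD44 tail, fell by 0.70 and 0.68 on the log2 scale (adjusted p = 0.0469 and 0.0306, edgeR). MSN (moesin), the highest in CPM of the 13 tested genes, had 1426 CPM in Ctrl and a log2 fold change of -0.53 (adjusted p = 0.180, edgeR), and the median was -0.031.

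Beside VIM, the keratins KRT18 and KRT8, filament partners of simple epithelia, rose. KRT18 went from 33.2 ± 1.196 to 86.1 ± 17.0 CPM and KRT8 from 5.60 ± 0.311 to 11.99 ± 1.65 CPM (SD, n = 2 each). On the log2 scale they rose by 1.37 and 1.10 (edgeR, adjusted p = 0.0192 and 0.0248). The other 5 tested filament and linker genes were not called by edgeR, which thus called 2 of the 7 (10.9% over all tested genes). In contrast, DESeq2 called 5 of the 7 tested genes of this list (14.6% over all genes). NEFL, the highest in CPM, had a log2 fold change of -0.86 (adjusted p = 0.117, edgeR), and the glial filament gene GFAP had 363 and 392 counts in Ctrl, against 32 and 153 with PRMT3-KD (log2 fold change -2.03, adjusted p = 0.0958, edgeR). GFAP was chosen after its values were seen.

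Of the 14 epithelial genes that SNAI2 and ZEB factors repress, 9 have an entry and 4 passed the filter on low counts. CDH1, which encodes E-cadherin, had 0 counts in both Ctrl libraries, against 4 and 1 with PRMT3-KD, GRHL2 had 1 or 2 counts in a library, and EPCAM, ESRP1, OVOL2, RAB25 and ST14 have no entry. A difference in CDH1 was not detectable at this depth. Of the 4 genes of this list that could be tested, none was called by edgeR (1 at an unadjusted p under 0.05) or DESeq2. Over all tested genes these tools called 10.9% and 14.6%, so that few calls would be awaited among 4 genes. The highest of them, DSP (desmoplakin), was at 11.8 CPM in Ctrl, against 18.4 CPM with PRMT3-KD (log2 fold change 0.64, adjusted p = 0.125, edgeR). KRT19, an epithelial keratin, had at most 17 counts in a library. CDH1, GRHL2 and KRT19 were chosen after their values were seen.

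The list of other mesenchymal GBM markers had a median log2 fold change of 0.24, with 25 of 38 tested genes above 0, against 6649 of 13172 over all tested genes. Of the 38, 3 were called by edgeR, where the share over all tested genes was 10.9%, and 6 by DESeq2 (14.6%). PLAUR, the urokinase receptor, and LGALS3 (galectin-3) rose by 1.23 and 0.77 on the log2 scale (edgeR, adjusted p = 0.0447 and 0.0215), and TGFBI, a matrix protein induced by TGF-beta, fell by 0.87 (adjusted p = 0.0142, edgeR). TGFBI had 53136 and 53162 counts in Ctrl, against 27327 and 29468 with PRMT3-KD, a tight pair in each group. THBS1, the highest in CPM, had 5434 and 5491 CPM in Ctrl, against 6230.4 and 10923 CPM with PRMT3-KD (log2 fold change 0.65, adjusted p = 0.172, edgeR). Of the 8 tested proneural markers all were lower in the fit, with a median of -0.40. The 1 called by edgeR was TUBB3, a neuronal tubulin (log2 fold change -0.62, adjusted p = 0.0308, edgeR). DESeq2 also called 1, beside 10.9% (edgeR) and 14.6% (DESeq2) over all tested genes. PDGFRA and CSPG5 overlapped between groups. PDGFRA was at 33.4 and 34.2 CPM in Ctrl, 8.62 CPM in PRMT3-KD library 1 and 37.2 CPM in library 2. Both were chosen after their values were seen.

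**Figure D4:**
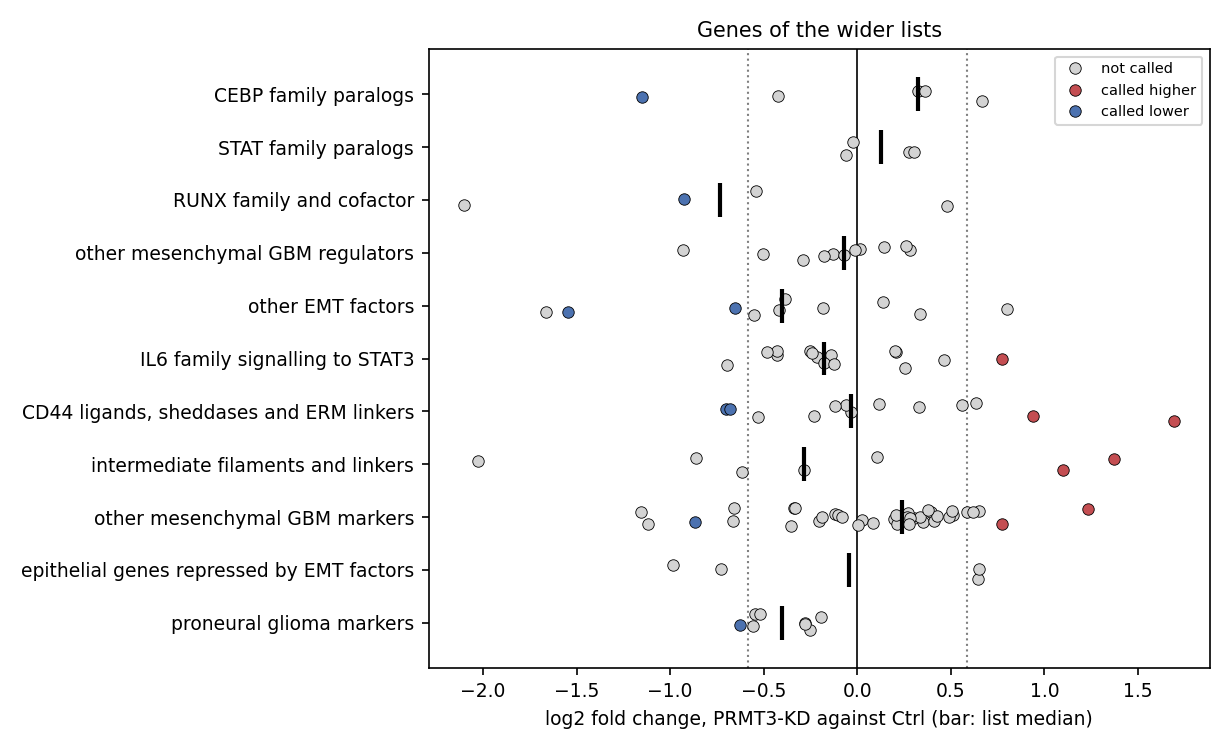
Log2 fold change of PRMT3-KD against Ctrl (x axis) for each tested gene of 11 lists (y axis), with red for called higher, blue for called lower, grey for not called, black bars for list medians and dotted lines at 1.5-fold. The medians lie between -0.73 (RUNX family and cofactor, 4 tested genes) and 0.32 (CEBP list, 5 tested genes, CEBPZ included), and called genes of both directions stand in the lists of CD44 partners and of other mesenchymal markers.

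PRMT3-KD library 2 also stood apart in some stromal genes. Of the 2 endothelial markers with an entry, CDH5 had 140 and 146 counts in Ctrl, 129 in PRMT3-KD library 1 and 722 in library 2, whereas VWF had 65, 57, 30 and 70 counts in the same order. The fibroblast and pericyte list summed to 3561 and 3579 CPM in Ctrl, 3751 CPM in PRMT3-KD library 1 and 6677 CPM in library 2, most of it COL1A2, while the pericyte gene RGS5 was lower in library 2 (3.06 CPM) than in library 1 (5.67 CPM). The sum hides that COL1A1 (55.7 and 58.8 CPM in Ctrl) was at 29.6 CPM in library 1 and 112.5 CPM in library 2. Likewise, PDGFRB (15.9 and 15.6 CPM in Ctrl) was at 11.9 and 35.9 CPM. In library 1, COL1A2, COL3A1, LUM and RGS5 were not below Ctrl. These genes were chosen after their values were seen. All 7 genes of the fibroblast and pericyte list have entries and 0 of the 6 tested was called by edgeR (1 at an unadjusted p under 0.05), while DESeq2 called 1. The shares over all tested genes were 10.9% (edgeR) and 14.6% (DESeq2). The part of this difference in the values of STAT3, which was also highest in library 2, was not tested. Without PRMT3-KD library 2, the log2 fold change of STAT3 was 0.66, that of SNAI2 -1.09 and that of ZEB2 -0.90.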

How the data were processed

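Total RNA of U251 cells was sequenced in 2 Ctrl and 2 PRMT3-KD libraries. The authors aligned reads to hg19 with TopHat and deposited unnormalized whole-number counts per gene from Cufflinks, with 1 column per library. Versions, annotation and strand setting are not given in the sources used here, and 1 duplicate entry was removed. The test was edgeR 4.0.16 in R 4.3.3 on the deposited counts: filterByExpr (minimum count 10, minimum total 15), TMM scaling, glmQLFit and glmQLFTest on all 4 libraries without covariates, and Benjamini-Hochberg adjustment over 13172 genes. A gene was called at an adjusted p under 0.05 and over 1.5-fold. The standard error is the size of the change divided by the root of F. The 10 genes and the wider lists were chosen with earlier results of these data known. Named genes were all 10 genes, PRMT3, paralogs in the ratios and, from each list, up to 5 called genes with the largest changes and the gene of highest mean CPM, with exceptions stated. Outside this rule, SOX2, markers of other cell types, glial markers, FOSL1, BHLHE40, WWTR1 and genes without an entry were also named.

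Positions and 3′ UTRs came from GENCODE 44 on GRCh37 (99.9% of identifiers matched) and promoters and microRNAs from RefSeq (GRCh38.p14). The alternatives were DESeq2 1.42.0, limma-voom (limma 3.58.1) with a variance weight per group, other scalings and filters, the replicate number as a block, other fold thresholds and leaving out each library. The tests were tested on simulated data with known changes. Intervals of count ratios cover counting error only. Results on a few genes are not reported here.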

Additional observations from a re-analysis of the deposited data

How the results depend on the processing

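The canonical transcript length was an alternative added after seeing the data. Under DESeq2, other scalings, filters, the replicate block and limma-voom, STAT3 (0.73 to 0.76), SNAI2 (-0.92 to -0.88) and ZEB2 (-0.80 to -0.76) kept their direction and call, with adjusted p of at most 0.0332, and the other 6 genes stayed uncalled. Library 1 and 2 are only numbers in the labels, so they were not treated as pairs. The correlation of their deviations between groups was 0.022 across genes. It cannot decide on pairing, because the Ctrl libraries differed by little more than counting error. The replicate block gave 1464 calls over all genes against 1441, and adjusted p was 0.0224 for STAT3, 0.0270 for SNAI2 and 0.0258 for ZEB2. CD44 turned to -0.021 with library totals only, -0.0024 with at least 10 counts in every library, -0.018 with the replicate block and -0.019 with limma-voom. With each library left out, log2 fold changes ran from 0.66 to 0.85 for STAT3, -1.09 to -0.70 for SNAI2, -0.90 to -0.65 for ZEB2, -3.61 to -2.68 for PRMT3, -0.28 to -0.081 for VIM, -0.25 to 0.21 for CD44 and -0.37 to 0.077 for RUNX1, the RUNX1/RUNX2 shift from -0.17 to 1.07, the members called from 0 to 3, the called genes of the wider lists from 0 to 43 and all calls from 0 to 3066. The calls were lost without Ctrl library 1 or 2, where the lone Ctrl library is assumed to vary like PRMT3-KD; fewer samples enter there, and the cause was not tested further. DESeq2 called 25 genes of the wider lists against 15. With an adjusted p only, 2278 genes and 24 of the wider lists were called; at 2-fold, 512, 6 and 0 of the 9 genes, since STAT3 (0.76), SNAI2 (-0.88) and ZEB2 (-0.77) lie under it (4 of the 9 had an unadjusted p under 0.05 in edgeR). Genes with few counts, such as CDH1 and SNAI1, are limited by depth.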
